A study of Mus musculus with 36 samples.

Results

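Ctsl encodes cathepsin L, a lysosomal cysteine protease, and its RNA was followed here with every probe that carries the symbol Ctsl. The array design holds 1 such probe among 20355 features, and Ctsl is 1 of 9930 genes named by its probes. The gene was chosen by its measured values in these data, among them its higher level at 2 h, so its levels and differences are given as a description and without a test. In RefSeq's mouse annotation the gene lies on chromosome 13.

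Cathepsin L is made as an inactive precursor that carries mannose 6-phosphate, is sorted to the lysosome by the mannose 6-phosphate receptors and is activated there by cleavage. It degrades proteins delivered by endocytosis and autophagy, and the cystatins inhibit it. In mouse fibroblasts the precursor was first known as the major excreted protein, because transformed and growth factor-treated fibroblasts secrete large amounts of it, and secreted cathepsin L can cleave matrix proteins such as fibronectin, laminin, elastin and collagens.

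The cells were NIH3T3 mouse fibroblasts, an established line, transfected with Erbb2 under a tet-off system, in which tetracycline is meant to shut the transgene down. The Erbb2 protein is a growth factor receptor with tyrosine kinase activity that drives ERK and AKT signalling. The groups were Erbb2-transfected cells after 1, 2, 4, 12 and 24 h and 3, 5 and 7 days of tetracycline, with 4 arrays each, and untreated Erbb2-transfected cells. All groups carried the transgene, the labels give neither the clone nor the tetracycline dose, and no line without Erbb2 was labelled as such, although the series' design text speaks of different untreated lines. Each two-colour array set RNA of its group (channel 1) against RNA of untreated Erbb2-transfected cells (channel 2), and replicates 1 and 2 had channel 1 in Cy5 while replicates 3 and 4 had it in Cy3.

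Several features of the arrays bear on every value below. Untreated replicates 1 and 2 held the same values up to a constant of 0.771 on the log2 scale (SD 0.00051 over 19772 values) and entered as 1 array, so that 35 arrays were used, 3 of them untreated. Between 17341 and 19945 features per array carried a usable value, and ratios carry no depth, so the number of arrays limits the precision. The interquartile range of the log2 ratios lay between 0.694 and 1.42 at 3 to 7 days and between 0.357 and 0.504 at 1 to 24 h, against 0.493 to 0.700 in untreated cells. On the arrays of 5 and 7 days the values had slid against the probe rows, and the Ctsl value was taken from 3 rows earlier, or 4 rows earlier in 5 d replicate 1. No probe is named Erbb2 in the annotation used here, so the loss of the transgene's RNA was not analysed here. Ratios give no absolute level, so the presence of fibroblast markers could not be checked. Of the markers of other cell types, 5 macrophage and 5 or 6 epithelial probes were tested at each time and 0 were called, against 0.0165% to 2.20% of all probes per time, so lists of this size would hold no call at the share of all probes either.

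Relative to untreated cells, Ctsl RNA was higher from 1 to 12 h of tetracycline, with its highest level at 2 h, and lower at 7 days. Values are log2 ratios of channel 1 to channel 2, centred on each array's median. The sign rests on an assumption: the ratios were read as Cy5 over Cy3, so the sign was turned on arrays whose channel 1 was in Cy3. If the deposited ratios were Cy3 over Cy5, every sign below would be the opposite. The RNA was extracted from whole cultures, in which a change in the number of cells that express a gene and a change in RNA per cell cannot be told apart.

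At 1 h the 4 arrays gave Ctsl log2 ratios of 1.40, 1.44, 1.33 and 1.79, and at 2 h they gave 2.28, 1.91, 1.85 and 1.75. At 4 h the values were 1.73, 1.83, 1.26 and 1.23. The 3 untreated arrays gave 0.09, 0.41 and 0.68. All 12 arrays of these times lay above the highest untreated array. The ranges at 1, 2 and 4 h overlapped each other between neighbours in level.

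At 12 h the arrays gave 0.96, 0.85, 0.73 and 0.84, again all above the untreated ones. At 24 h they gave 0.61, 0.60, 0.55 and 0.37, all within the untreated range. At 3 days the values were -0.30, -0.13, 0.41 and 0.04, and at 5 days they were 0.23, 0.15, 0.05 and -0.10. Of the 4 arrays 3 lay below the lowest untreated array at 3 days and 2 at 5 days. At 7 days the values were -0.87, -0.71, -1.13 and -1.06, all below the untreated arrays and below every other array of the series.

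**Figure D1:**
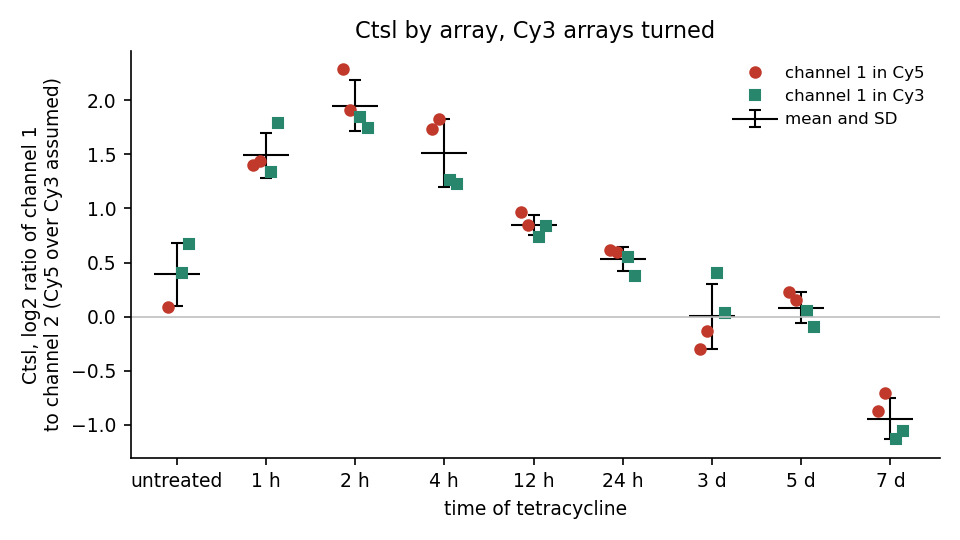
Log2 ratio of Ctsl in channel 1 to channel 2 on each of the 35 arrays (points, by dye of channel 1) at each time of tetracycline, with the group mean (long bar) and SD (whiskers). The group means run from 0.39 in untreated cells to 1.95 at 2 h, 0.53 at 24 h and -0.94 at 7 days.

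The mean log2 ratio of Ctsl was 1.49 ± 0.21 at 1 h, 1.95 ± 0.24 at 2 h, 1.51 ± 0.31 at 4 h, 0.85 ± 0.09 at 12 h and 0.53 ± 0.11 at 24 h (SD, n = 4 each). It was 0.00 ± 0.30 at 3 days, 0.08 ± 0.14 at 5 days and -0.94 ± 0.19 at 7 days (SD, n = 4 each), against 0.39 ± 0.29 in untreated cells (SD, n = 3). From high to low the order was 2 h, 4 h, 1 h, 12 h, 24 h, untreated, 5 days, 3 days and 7 days. Only 3 steps of that order separated groups with ranges that did not overlap: 1 h over 12 h by a gap of 0.37 between the nearest arrays, 12 h over 24 h by 0.12 and 3 days over 7 days by 0.40. In order of time, the mean at 2 h was 0.46 above that at 1 h and the mean at 4 h was 0.44 below that at 2 h, with overlapping arrays at both steps. The later steps with separate arrays were 12 h minus 4 h, at -0.67, 24 h minus 12 h, at -0.31, and 7 days minus 5 days, at -1.03.

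Differences from untreated cells came from 1 linear model of all 35 arrays, which fitted the 9 groups and the dye, and each had an SE of 0.19. The Ctsl difference was 1.09 at 1 h, or 2.12-fold, 1.54 at 2 h, or 2.91-fold, and 1.11 at 4 h, or 2.15-fold. It was 0.44 at 12 h (1.36-fold) and 0.13 at 24 h (1.09-fold), where it was smaller than its SE. At 3 and 5 days the differences were -0.40 and -0.32, with treated means of 0.00 and 0.08, so they reflect the untreated mean of 0.39. At 7 days the difference was -1.35, or 2.54-fold lower, with a treated mean of -0.94. Both channels of the untreated arrays were named as untreated cells, yet their Ctsl mean was not 0, and the cause was not tested. The median difference of all probes lay between -0.02 and 0.01 at every time. At 2 h 258 of 18505 probes had a larger difference than Ctsl, at 1 h 646 of 18269 and at 4 h 494 of 18617. By 12 h the number was 2585 of 18151, and at 7 days 228 of 17002 probes had a difference further below 0.

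The 2 dye orientations can be set side by side. Before turning, all 10 Cy5 arrays of 1 to 24 h had Ctsl above 0 and all 10 Cy3 arrays had it below 0. At 7 days both Cy5 arrays had it below 0 and both Cy3 arrays above 0. At 3 days all 4 arrays lay below 0 before turning, at -0.30, -0.13, -0.41 and -0.04, so the dyes differed in sign once turned. Within the Cy5 arrays alone the difference from the 1 untreated Cy5 array was 1.33 at 1 h, 2.01 at 2 h, 1.69 at 4 h, 0.82 at 12 h and -0.88 at 7 days, and at 5 days it was 0.10, opposite in sign to the value from both dyes. Within the Cy3 arrays alone, against 2 untreated Cy3 arrays, it was 1.26 at 2 h, 0.70 at 4 h, 0.24 at 12 h and -1.63 at 7 days, and at 24 h it was -0.08, again opposite in sign to the value from both dyes.

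**Figure D2:**
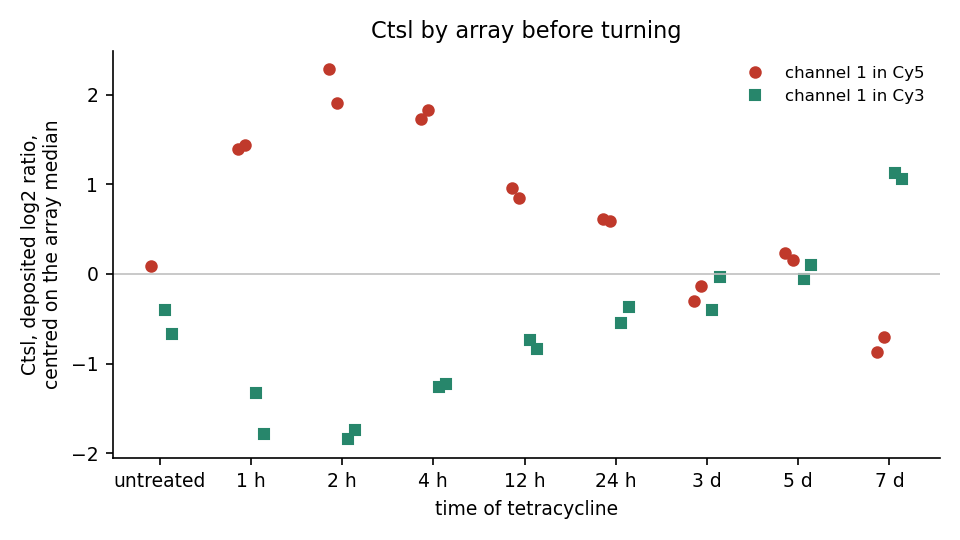
Ctsl log2 ratio as deposited, centred on each array's median and not turned, by time of tetracycline and by dye of channel 1. The Cy5 and Cy3 arrays lie on opposite sides of 0 at every time from 1 to 24 h and at 7 days, and on the same side at 3 days.

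Without turning, the difference was 0.04 at 1 h, 0.26 at 2 h and 0.38 at 4 h, and 0.26 at 7 days. Left in the rows as deposited, the 7-day value was -0.25 in place of -1.35. The sign at 24 h turned to -0.07 without untreated replicate 1, and the difference at 12 h was 0.24 without that array and 0.60 without untreated replicate 4.

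**Figure D3:**
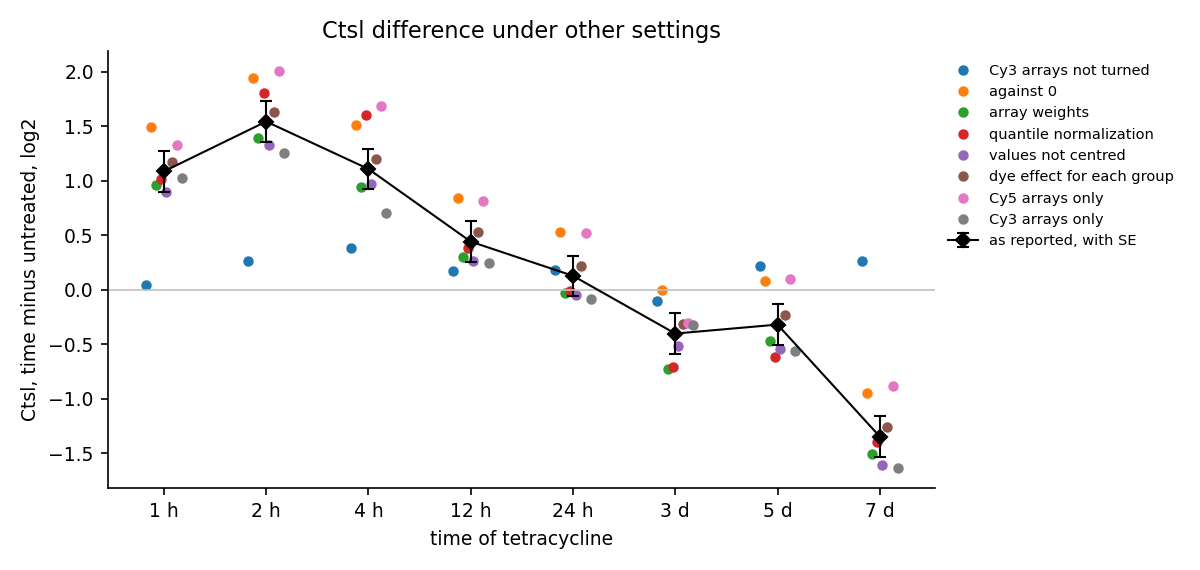
Difference of Ctsl from untreated cells on the log2 scale at each time of tetracycline, as reported (diamonds, with SE) and under 8 other settings (points). At 1, 2 and 4 h every point lies above 0, and at 7 days all but the one with Cy3 arrays not turned lie below 0.

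The other cathepsins gave no call at any time. Of 22 listed cathepsins besides Ctsl, 10 had a probe, and their 13 probes had a median difference of 0.05 at 2 h, against 0.01 for all probes. In limma's fit 0 of 13 were called at 2 h, when 0.540% of all 18505 probes were called at an adjusted p under 0.05, so a count of 0 is near the share of all probes. Their differences at 2 h ran from -0.56 to 1.93. Only Ctse, an aspartic protease of the endosome, exceeded Ctsl, at 1.93 with an SE of 1.19 (limma adjusted p = 0.999), and its 3 untreated arrays ranged from -2.67 to 0.72.

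Among the cysteine cathepsins, Ctsb, the lysosomal cathepsin B, differed at 2 h by 0.56 (SE 0.32) on 1 probe and by -0.11 (SE 0.32) on the other, neither called. The first Ctsb probe had 0.70, 0.87, 0.71 and 0.73 on the 2 h arrays, against 0.18, -0.26 and 0.76 on the untreated ones, so the groups overlapped. Ctss, a cathepsin of antigen-presenting cells, differed by 0.84 (SE 0.49) and Ctsh, an aminopeptidase, by -0.17 (SE 0.24). Ctsd, the main aspartic protease of the lysosome, differed by 0.26 (SE 0.19) and 0.47 (SE 0.43) on its probes. At 7 days 11 cathepsin probes were tested, 0 were called, near the 1.12% of all probes called, and their differences ran from -0.30 to 0.53. None of them was as large in size as that of Ctsl.

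For the inhibitors, 5 to 8 probes were tested per time and 0 were called, which at 0.0165% to 2.20% of all probes called per time is no result about them. The largest difference at 2 h was that of Cstb, cystatin B, a cytosolic inhibitor of cathepsins, at 1.49 (SE 0.57, limma adjusted p = 0.549). Cstb had 1.13, 0.84, 0.59 and 1.04 on the 2 h arrays, against -0.49, -1.14 and -0.18 on the untreated ones. The 2 h arrays all lay above the untreated ones, and at 7 days the Cstb difference was 0.36. Cst3, the secreted cystatin C, differed by -0.99 at 1 h (SE 0.38, adjusted p = 0.733) and by -0.47 at 2 h.

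For sorting and processing, M6pr, the cation-dependent mannose 6-phosphate receptor, differed by 0.61 at 2 h (SE 0.22, limma adjusted p = 0.465). Gga2, an adaptor for mannose 6-phosphate receptors, differed by 0.31 (SE 0.43), and Lgmn, the legumain that can process cathepsins, by -0.23 (SE 0.51). Scarb2, a lysosomal membrane receptor that carries glucocerebrosidase, was lower by 0.88 at 5 days than in untreated cells on 1 probe (SE 0.21, limma adjusted p = 0.0198). The means of that probe lay between -0.24 and 0.22 at every time of tetracycline, against 0.65 in untreated cells. Its low level was thus not particular to 5 days. That probe had -0.13, -0.12, -0.25 and -0.47 at 5 days, against 0.22, 0.89 and 0.83 in untreated cells, while the other Scarb2 probe differed by 0.30 (SE 0.61). The Scarb2 call was the 1 call among 11 probes of the list at 5 days, when 2.20% of all probes were called. It was lost without 5d replicate 4, untreated replicate 3 or untreated replicate 4.

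Lysosomal hydrolases and membrane proteins had 0 calls among 36 probes at 2 h, with a median difference of 0.02. The named members at 2 h were Tpp1, a tripeptidyl peptidase, at 1.23 (SE 0.55; 0.47, 0.15, 0.06 and 0.06 at 2 h, against -0.10, -0.39 and -2.64 in untreated cells), Gla, alpha-galactosidase A, at 0.94 (SE 0.38), Atp6ap1, an accessory subunit of the proton pump, at 0.69 (SE 0.26) and the membrane protein Lamp1 at 0.56 (SE 0.19) on 1 of its 3 probes. None of these passed. The 1 call of the list was Neu1, the lysosomal sialidase, at 3 days, when 0.749% of all probes were called. That Neu1 probe had -1.68, -0.96, -1.64 and -3.23 at 3 days, against 0.05, -0.10 and -0.13 in untreated cells, and fell by 1.85 (SE 0.44, limma adjusted p = 0.0379). The other Neu1 probe differed by 0.41. The Neu1 call was lost without 3d replicate 4, untreated replicate 3 or untreated replicate 4, and with quantile normalization or array weights. Tfeb, a transcription factor for lysosomal genes, differed by 0.38 at 2 h (SE 0.17) and its relative Tfe3 by 0.04 (SE 0.26), neither called.

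Over these 6 lists without the substrates, 0 of 70 probes were called at 2 h, 0 of 69 at 1 h (0.197% of all probes), 0 of 70 at 4 h (0.193%) and 0 of 64 at 7 days (1.12%). The counts at 12 and 24 h were 0 of 69 and 0 of 68, when 0.0165% and 0.0276% of all probes were called. These counts are near the shares of all probes. At an unadjusted p under 0.05, with only the arrays of untreated cells and of 1 time in the fit, 10 of these 70 probes passed at 2 h (14.3%), against 8.28% of all 18505. At the other times the share in these lists was 1.56% to 5.88%, against 3.34% to 7.10% of all probes.

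**Figure D4:**
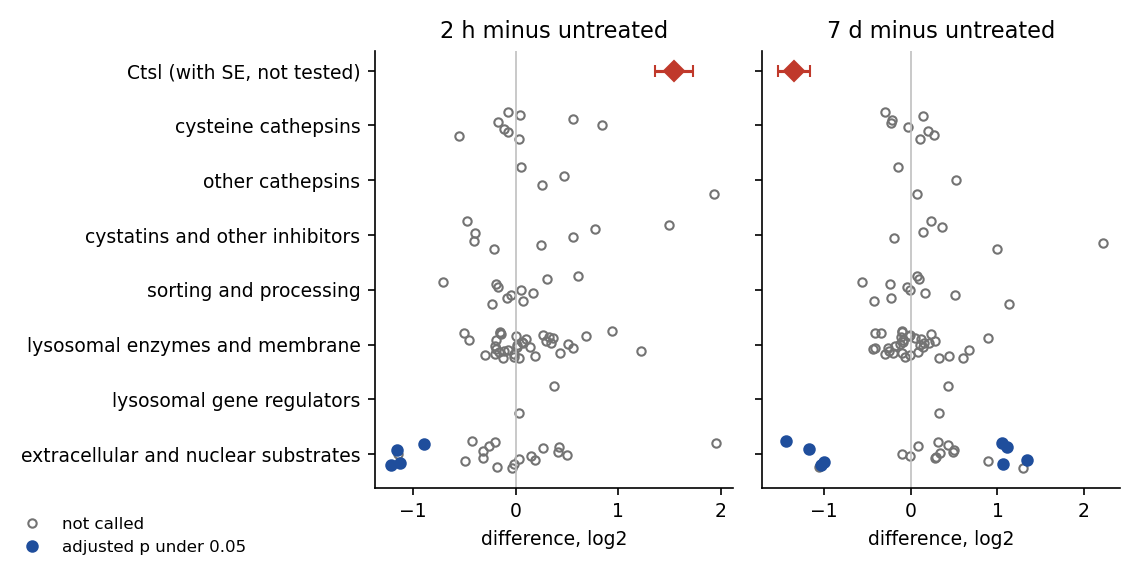
Difference from untreated cells on the log2 scale at 2 h (left) and 7 days (right) for Ctsl (diamond, with SE, not tested) and for each tested probe of the 7 lists (circles, filled where limma's adjusted p was under 0.05). The filled circles all belong to the list of extracellular and nuclear substrates, 4 at 2 h and 8 at 7 days.

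The proteins that cathepsin L is known to cleave were the list with calls at the times when Ctsl differed most. This list, like the others, was chosen with earlier results of these data known, and a link to Ctsl was not tested. Of its 22 probes tested, 5 fell at 1 h and 4 fell at 2 h, and 2 of 23 fell at 4 h, against 0.197%, 0.540% and 0.193% of all probes called. The count at 1 h was 4 when any one of the 1 h arrays or untreated replicate 4 was left out. The count at 2 h was 2, both of Col1a2, when any one of the 2 h arrays or untreated replicate 3 or 4 was left out. The count at 4 h was 1 without untreated replicate 4. At 7 days 4 of 21 rose and 4 fell, against 1.12%. These calls belong to 3 genes, Col1a1 and Col1a2, for the chains of collagen I, and Fn1, for fibronectin. The study's untreated arrays are shared with the Ctsl differences. Collagen I and fibronectin genes are also on the list of fibroblast markers, of which 6 of 18 probes were called at 1 h, 5 at 2 h, 3 at 4 h and 10 at 7 days.

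On its tested probes Col1a2 was lower at 1, 2 and 4 h, when Ctsl was higher, and higher at 7 days, when Ctsl was lower. On 1 Col1a2 probe the arrays had -1.38, -1.42, -1.53 and -1.48 at 1 h and -1.16, -1.14, -1.40 and -1.42 at 2 h, against -0.24, -0.02 and 0.08 in untreated cells. At 7 days it had 1.08, 1.06, 0.94 and 0.92, so the early and the late arrays lay on opposite sides of all the untreated ones. That probe fell by 1.38 at 1 h (SE 0.18, limma adjusted p = 0.000113), fell by 1.21 at 2 h (adjusted p = 0.000673) and fell by 1.13 at 4 h (adjusted p = 0.00423), and it rose by 1.07 at 7 days (adjusted p = 0.0017). A second Col1a2 probe was called at the same times, at -1.30, -1.16, -1.03 and 1.11. Another was called at 1 h, 2 h and 7 days, at -1.23, -0.89 and 1.06, and had -0.75 at 4 h (adjusted p = 0.240). The remaining Col1a2 probe had too few untreated values to be tested, at -0.745 and -2.81. Its means of -1.24 at 1 h, -1.15 at 2 h and -1.02 at 4 h lay above its untreated mean of -1.78. For Col1a1, 1 probe fell by 1.58 at 1 h and by 1.12 at 2 h, and the other fell by 0.99 at 1 h and rose by 0.96 at 3 days, 0.79 at 5 days and 1.34 at 7 days. The first Col1a1 probe was not called at 7 days. For the other, the call at 1 h was lost when any one of the 1 h arrays or untreated replicate 4 was left out. Its calls at 3 and 5 days were lost without untreated replicate 3 or 4, and that at 5 days also without 5d replicate 1 or 2.

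Fn1 showed another course. Its probes had means between -0.55 and -0.23 at 1 h and between -0.33 and 0.04 at 2 h, against 0.07 to 0.19 in untreated cells. At 1 h Fn1 thus lay below untreated cells, as the tested collagen I probes did. No Fn1 probe was called at 1 or 2 h, though 1 was called at 1 h without untreated replicate 1. At 7 days 4 of 5 Fn1 probes fell, by between 1.00 and 1.45, with limma adjusted p-values between 7.9e-05 and 0.00328, and the remaining probe differed by -1.06. The Fn1 probe with the largest fall had -1.29, -1.19, -1.39 and -1.51 at 7 days, against -0.13, 0.18 and 0.28 in untreated cells. The other substrates with probes, which include chains of collagen IV and laminin, had no call at any time. The largest difference of the list at 2 h was nevertheless a rise, by 1.96, on 1 probe of Col4a1, a collagen IV chain. That probe had means of 1.21 at 1 h and 0.62 at 2 h, against -1.44 in untreated cells. Another Col4a1 probe had -0.05 and -0.30, against -0.02. Fitted on the arrays of 1 time and of untreated cells alone, limma called 0 probes of any list at any time, so each call rests on the spread pooled over all groups. How many of all probes those fits called is not given here, so this count of 0 is no result about the lists.

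**Figure D5:**
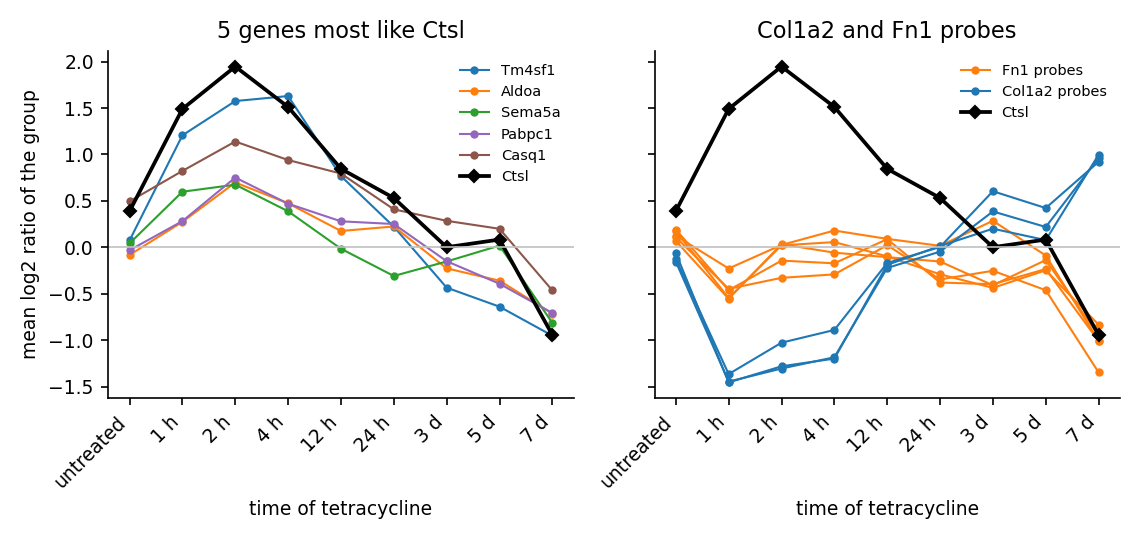
Mean log2 ratio by time of tetracycline for Ctsl (black diamonds), beside the 5 genes with the most similar pattern over 35 arrays (left) and beside the Col1a2 and Fn1 probes (right), all from arrays turned and centred in the same way. Col1a2 lies between -1.45 and -1.03 at 1 and 2 h and between 0.92 and 1.00 at 7 days, where Ctsl is at -0.94 and the Fn1 probes lie between -1.35 and -0.83.

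The pattern of Ctsl over the 35 arrays was compared with that of 11928 probes with a value on every array, by Pearson's r after each probe's dye effect was taken out. These correlations are a description: the points share groups, arrays and the centring. The 5 named genes with the highest r were Tm4sf1, a membrane protein of the transmembrane 4 family, at 0.91, Aldoa, the glycolytic aldolase A, at 0.89, Sema5a, a semaphorin, at 0.88, Pabpc1, a poly(A)-binding protein, at 0.88, and Casq1, a calcium-binding protein of the sarcoplasmic reticulum, at 0.87. Over the 23 arrays of 1 to 24 h and untreated cells their r was 0.88, 0.83, 0.86, 0.73 and 0.76 in the same order. Tm4sf1 had means of 1.21 at 1 h, 1.58 at 2 h, 1.63 at 4 h, 0.77 at 12 h and -0.95 at 7 days, against 0.08 in untreated cells, and so came closest to Ctsl in size. Aldoa and Pabpc1 had smaller means, 0.70 and 0.75 at 2 h and -0.71 at 7 days for both.

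Over the 23 arrays without the late times, other genes came first. They were Pcna, the replication clamp, at 0.91, Ran, the GTPase of nuclear transport, at 0.90, Hsp90aa1, a heat shock protein, at 0.90, Hsd17b12, an enzyme of fatty acid elongation, at 0.90 and Slc25a5, an ADP/ATP carrier of mitochondria, at 0.90. Their r over all 35 arrays was lower, between 0.69 for Pcna and 0.84 for Hsd17b12. Pcna had a mean of 1.42 at 2 h and 0.17 at 7 days, against 0.16 in untreated cells, so it did not share the low value of Ctsl at 7 days. Over all arrays 50 probes had an r over 0.8 and 29 an r under -0.8, with a median over all probes of 0.00. The Col1a2 probes with all values had r between -0.89 and -0.86 and the Col1a1 probes -0.88 and -0.85. In the lists without the substrates, r over all arrays ran from -0.49 for Ctla2a, a cysteine protease inhibitor, to 0.52 for Cstb.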

How the data were processed

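Total RNA of 36 labelled samples was measured on two-colour arrays. Per the labels, each deposited value is a log2 ratio between channels, 1 for each feature. The scanner software, background correction, normalization and numerator are not given in the sources used here. The labels' protocols speak of organs and of a reference pool of control animals, which conflicts with the named sources, and the sources were followed. Probes were named from GEO's platform annotation: 14030 features had 1 symbol, 5 several and 6320 none.

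Values above 12 (2807 of them) were dropped, each array was centred on its median, and Cy3 arrays were multiplied by -1. On the 8 arrays of 5 and 7 days a hidden Markov model placed each value back in its probe row, and a median of 526 probes per array around 4 slide points and at the end were left out. limma 3.58.1 in R 4.3.3 was fitted on all 35 arrays with group means and a dye effect. All groups shared 1 spread per probe, although the ratios spread more widely at 3 to 7 days than at 1 to 24 h. The p-values may therefore be too small at 3 to 7 days and too large at 1 to 24 h. Probes with fewer than 3 values in a compared group were not tested, and a call was an adjusted p under 0.05 after Benjamini-Hochberg correction over every tested probe. The row placement and the fit were tested on simulated data. The simulation of the fit gave each probe 1 spread on all arrays, so it could not show the effect of the unequal spread. Nothing in the labels ties replicates to separate cultures, so p-values measure only the spread between arrays, possibly a technical one.

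Ctsl and the gene lists were chosen with earlier results of these data known. Named are genes called at any time and the 5 genes most like Ctsl over all and over early arrays. Also named are members from the 4 of each list with the largest difference at 2 h, though not all 4 in every list. Alternatives covered turning, dye, centring, normalization, weights, row placement, filters, the arrays in the fit and leaving out each replicate.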

Additional observations from a re-analysis of the deposited data

Results flagged for a closer look

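The difference of Ctsl between 7 days and 2 h was -2.888 on the log2 scale (means -0.94 and 1.95). At 2 h all 4 arrays lay above every untreated array and at 7 days all 4 lay below every untreated array. The rule for singling out was the opposite direction of the arrays. At 4 times all arrays lay above the untreated ones, and only 2 h, the time of the highest level, was kept. The difference itself was not tested. Among the 8 groups of 4 arrays, no Ctsl value lay far enough from the others to be singled out.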

How the results depend on the processing

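With the Cy3 arrays not turned, the Ctsl difference was 0.041, 0.26, 0.38 and 0.17 at 1, 2, 4 and 12 h, and had the opposite sign at 5 days (0.22) and 7 days (0.26). The called list probes then numbered 1 at each time but 3 days (12) and 7 days (2). How many of all probes each setting called is not given here. The list counts in this section therefore show only how far the counts moved, and are no result about the lists. Against 0 in place of the untreated arrays, Ctsl was 1.49, 1.95, 1.51, 0.85 and 0.53 from 1 to 24 h, 0.0022 at 3 days, 0.085 at 5 days and -0.94 at 7 days, with 8, 11 and 7 list probes called at 1, 2 and 4 h, 1 at 24 h, and 10, 4 and 13 at 3, 5 and 7 days. With Cy5 arrays only it was 1.33, 2.01, 1.69, 0.82 and 0.52, then 0.10 at 5 days and -0.88 at 7 days, with 1 list probe at 1 h, 5 at 7 days and 0 at 2 h, 4 h, 3 days and 5 days. With Cy3 arrays only it was 1.26 at 2 h, 0.70 at 4 h, 0.24 at 12 h, -0.081 at 24 h, -0.56 at 5 days and -1.63 at 7 days, with 4, 1 and 19 list probes at 4 h, 24 h and 3 days. These 2 dye splits and the fit without late arrays were chosen after the data were seen. Values not centred gave 0.27 at 12 h, -0.045 at 24 h, -0.54 at 5 days and -1.61 at 7 days, with 3, 2 and 0 list probes at 1, 2 and 4 h and 1, 0 and 4 at 3, 5 and 7 days. Quantile normalization gave 1.81, 1.61, -0.0067, -0.71 and -0.61 at 2 h, 4 h, 24 h, 3 days and 5 days, with 8, 8 and 6 list probes at 1, 2 and 4 h and 0, 1 and 3 at 3, 5 and 7 days. Array weights gave 0.30, -0.029, -0.73 and -0.47 at 12 h, 24 h, 3 days and 5 days, with 16, 14, 7, 2 and 3 list probes from 1 to 24 h and 0 at 3 days. List counts were 4, 7 and 5 at 4 h, 3 days and 5 days with a dye effect for each group, 1, 4 and 4 at 24 h, 3 days and 5 days with no minimum number of values, 8, 8 and 5 at 1, 2 and 4 h without the 3, 5 and 7 day arrays, and 0 at 1, 2 and 4 h and 3, 5 and 7 days with only the 2 groups compared. With 5 and 7 day rows as deposited Ctsl was -0.60 and -0.25, with 0 and 4 list probes.

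Leaving out 1 array at a time gave Ctsl ranges of 0.88 to 1.24, 1.34 to 1.70, 0.91 to 1.26, 0.24 to 0.60 and -0.073 to 0.29 from 1 to 24 h, and of -0.60 to -0.24, -0.52 to -0.16 and -1.55 to -1.19 at 3, 5 and 7 days. The outer values came from leaving out untreated replicates 1 and 4. List counts ranged from 4 to 6, 2 to 5 and 1 to 3 at 1, 2 and 4 h, were 0 at 12 and 24 h, and ranged from 0 to 7, 0 to 2 and 8 to 9 at 3, 5 and 7 days. They were 7 at 3 days without 3d replicate 1 and 0 at 3 and 5 days without untreated replicate 3. With the replicate number as a block, Ctsl was 1.54 at 2 h and -1.35 at 7 days, with 3 and 8 list probes. The numbers did not pair the arrays (median r of -0.06 over 136 same-numbered pairs). The cause of these shifts was not tested.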
